A study of Mus musculus with 24 samples.

Results

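Human WT-ERG and the empty vector (BB) were compared in ER-Hoxb8 cells that had all received BRD3308, an inhibitor of the histone deacetylase HDAC3, to see which differences between the constructs are present when HDAC3 is inhibited. The comparison took every library labelled as BRD3308-treated WT-ERG or BRD3308-treated BB, 4 of each and 8 of the 24 libraries of the series, and 12963 of the 53801 genes in the count table, those with enough reads to be tested. Levels are in CPM, counts scaled to a common library size, and fold changes of WT-ERG over BB are on the log2 scale.

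ER-Hoxb8 cells are C57BL/6 mouse granulocyte-monocyte progenitors kept immature by a Hoxb8 protein fused to the estrogen receptor. Both constructs were delivered by lentivirus, GFP-positive cells were sorted as stable lines, and beta-estradiol was washed out before treatment, so every group was measured while free to differentiate. The methods and the deposited description give 5 µM BRD3308 for 36 h, and other passages of the study give another dose and a longer time. The same constructs in DMSO, the solvent, with 4 libraries each, served for comparison and share no library with the BRD3308-treated groups. The replicates are described as independent experiments, but separate transductions are not stated. A difference between constructs therefore cannot be told apart from a difference between the 2 derived lines, and p values measure the spread between these cultures.

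ERG belongs to the ETS transcription factors, which bind DNA around a GGAA core. It maintains hematopoietic stem and progenitor cells, and high levels accompany acute leukemias. HDAC3 works within the NCoR complex, which activates it and brings it to chromatin, where it removes acetyl groups from histones. Granulocyte-monocyte progenitors normally pass from primary granule synthesis to secondary granule synthesis on the way to neutrophils, or give rise to monocytes.

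The 8 libraries held 13105875 to 16145090 counts. In each, how far genes lay from their group mean was correlated with their exon length (log2), at -0.0991 to 0.164, and in every group the value was highest in replicate 1. Across the other 16 libraries it ran from -0.287 to 0.241, and was lowest in the fourth DMSO replicates of WT-ERG (-0.24) and P199L-ERG (-0.287), a mutant construct that entered the fit only through the shared estimate of spread. No pair of libraries within a group was a duplicate.

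The primary granule markers of the myeloid label were abundant. All 10 primary granule genes, which encode proteins of the first neutrophil granules, were tested, and together they reached 28935 to 29841 CPM in WT-ERG and 26841 to 28226 CPM in BB cells. The globin genes *Hba-a1*, *Hba-a2*, *Hbb-bs* and *Hbb-bt* had no read in any of the 8 libraries, and neither did *Cd4*, *Cd8a* or *Ms4a1*, which mark T and B cells. Other listed genes of these lineages did have reads. The erythroid list summed to 526 to 544 CPM in WT-ERG and 528 to 554 CPM in BB cells. The T and NK cell list summed to 561 to 601 and 368 to 388 CPM. Of this, *Nkg7* averaged 330 CPM in WT-ERG and 237 CPM in BB cells, and *Thy1* 241 and 129 CPM. For the B cell list the sums were 122 to 138 and 186 to 207 CPM.

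The transgene could be checked only through mouse *Erg* (chr16:95359169-95586593, minus strand in GRCm38), since reads from the human construct may have mapped to it and cannot be told apart from endogenous reads. *Erg* measured 124, 117, 122 and 123 CPM in WT-ERG and 117, 114, 105 and 109 CPM in BB cells under BRD3308. The highest BB library lay just above the lowest WT-ERG library. The log2 fold change was 0.12, SE 0.04, adjusted p = 0.041 by edgeR, whereas an exact two-sided permutation test of the 4 against 4 log2 CPM gave p = 0.0571, where 0.0286 is the smallest p possible. The edgeR call was lost when BB replicate 2, 3 or 4 or WT-ERG replicate 1, 3 or 4 was left out, with adjusted p of 0.0709 to 0.209. In DMSO the *Erg* difference was 0.16, SE 0.04, adjusted p = 0.0057. *Hdac3*, the target of the inhibitor, was at 89.9 to 96.3 CPM in WT-ERG and 85.7 to 91.1 CPM in BB cells, and the 95% interval of its log2 fold change was -0.03 to 0.15. The corepressor *Ncor1* had an interval of -0.12 to 0.10 and did not pass the test. These intervals are not adjusted for the number of genes.

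Under BRD3308, WT-ERG exceeded BB cells at 1353 genes and was below them at 1381, or 10.4% and 10.7% of those tested. The median log2 fold change of all tested genes was -0.00042. Most called differences were modest, with medians of 0.34 for the higher and -0.27 for the lower genes, and 206 and 153 of them exceeded 1 on the log2 scale. The libraries of the constructs did not overlap for 1179 of the higher and 1220 of the lower genes. These counts cover called genes only, where a small p value makes separation likely, and the share among all tested genes was not determined. Calls were more frequent among abundant genes, with 26.7% of the most abundant of 4 equal classes passing and 16.6% of the least abundant. More reads stand behind each abundant gene, and their part in this gradient was not tested. In the most abundant class 526 genes were lower and 338 higher, and in the least abundant class 218 were lower and 319 higher.

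In DMSO, 2027 genes were higher and 1825 lower, or 15.6% and 14.1% of those tested (29.7% in either direction). Of the genes higher in DMSO, 1014 (50.0%) were also called higher under BRD3308, and they made up 74.9% of the BRD3308 list. Of those lower in DMSO, 1057 (57.9%) were also called lower, which was 76.5% of the BRD3308 list. Of the genes called in DMSO but not in the same direction under BRD3308, most still pointed the same way, so that 1926 of the 2027 higher genes (95.0%) and 1771 of the 1825 lower genes (97.0%) kept their sign. A single gene, *Nudt18*, was called in opposite directions, at 0.24 in DMSO and -0.22 under BRD3308, and its libraries overlapped under BRD3308 at 11.1 to 14.4 CPM in WT-ERG and 13.3 to 15.9 CPM in BB cells. *Nudt18* encodes a nucleotide hydrolase. Its BRD3308 call was lost when BB replicate 2 or 3 or WT-ERG replicate 1, 2 or 4 was left out, with adjusted p up to 0.126.

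**Figure D1:**
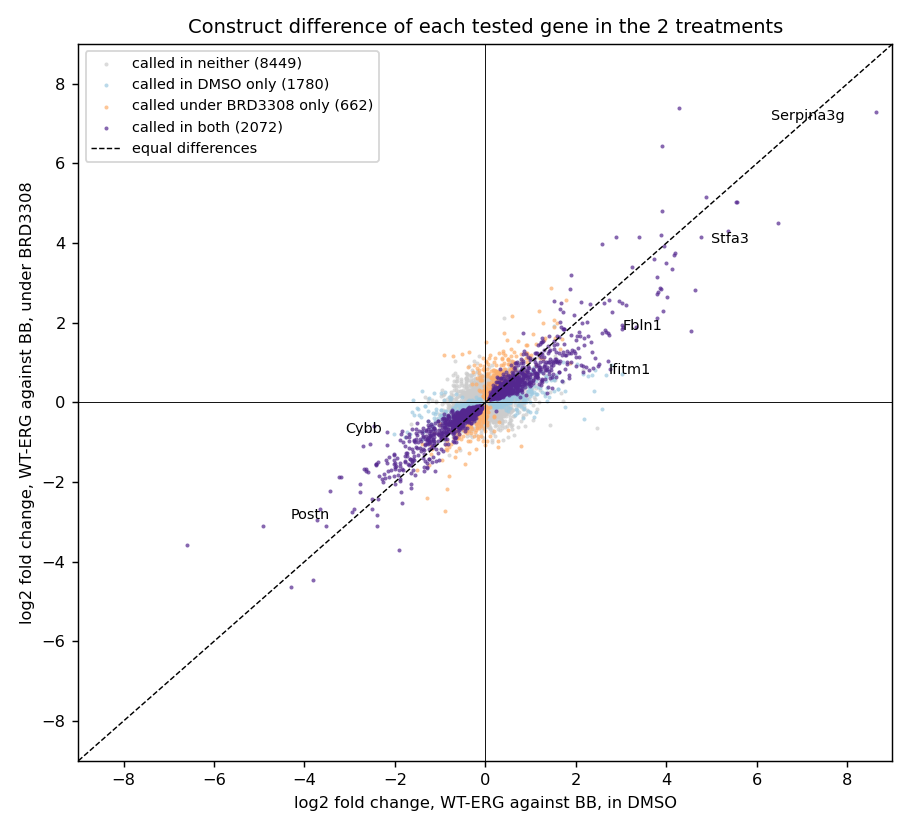
Each point is 1 of the 12963 tested genes, placed by its log2 fold change of WT-ERG against BB in DMSO (x axis) and under BRD3308 (y axis), with colours for where it passed the test and a dashed line of equal differences. Of the 2072 genes called in both, all but *Nudt18* lie at the lower left or upper right, and *Ifitm1* lies well below it at 2.48 in DMSO and 0.90 under BRD3308.

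How far the differences shrank depended on which comparison chose the genes. Among genes called in DMSO, the median log2 fold change was 0.30 in DMSO and 0.18 under BRD3308 for the higher genes, and -0.28 and -0.19 for the lower genes. Among genes called under BRD3308, the higher genes had medians of 0.34 under BRD3308 and 0.34 in DMSO, and the lower genes -0.27 and -0.30. Each list was selected on one of its 2 medians, so neither pair measures the change without that selection. The test of the difference itself is given at the end of the results.

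Where the mean log2 CPM reached 2 and the libraries of the constructs did not overlap, the 4 largest increases lay in the stefin A locus on chromosome 16. Stefin A proteins inhibit cysteine proteases such as cathepsins, and several are abundant in mouse neutrophils. *Stfa3* (chr16:36450537-36455392, minus strand) measured 138, 149, 172 and 191 CPM in WT-ERG and 6.66, 8.81, 8.27 and 13.2 CPM in BB cells, a log2 fold change of 4.14, SE 0.17, adjusted p = 8.06e-17. *Gm5416* measured 89.4, 103, 108 and 118 CPM against 8.38, 9.69, 10.5 and 12.3 CPM (3.36, SE 0.13, adjusted p = 2.4e-17). *BC100530* measured 739, 831, 921 and 935 CPM against 100.2, 119.8, 129 and 153 CPM (2.77, SE 0.15, adjusted p = 2.17e-14). In each of these genes every WT-ERG library lay above every BB library, as the choice of genes required, and the gap was wide.

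*Stfa1* measured 1690, 1909, 2086 and 2148 CPM in WT-ERG and 743, 830.4, 914 and 1044 CPM in BB cells (log2 fold change 1.15, SE 0.12, adjusted p = 2.75e-08). Between chr16:36156811-36455392, where 10 genes were tested, all 10 were called higher under BRD3308 and in DMSO. Their median log2 fold change was 2.71 under BRD3308 and 3.90 in DMSO. No overlap between the constructs was found for 9 of the 10, and for 1179 of all 1353 genes called higher under BRD3308. This window was taken after the values of its leading genes were seen, and those leading genes had been chosen for a lack of overlap. The locus gene with overlap was *Stfa2l1*, at 37, 45.7, 47.5 and 57.6 CPM against 20.6, 26, 32.3 and 37.4 CPM (0.69, SE 0.18, adjusted p = 0.00586). The others were *Stfa2* (3.51), *BC117090* (3.69), *2010005H15Rik* (1.74), *Gm5483* (1.20) and the antisense gene *Gm15845* (2.65). The stefin genes are paralogs, among which reads may have been divided, and *Gm15845* overlaps *BC100530*, from which its reads cannot be told apart without strand. Of the 7 tested genes flanking the window, within 200 kb on one side and 400 kb on the other, 2 were called, and their log2 fold changes ran from -0.14 to 0.31.

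The RefSeq promoter table held 4 of these genes, and the 100 bases before their start sites (GRCm38.p6, written 5′ to 3′ on the strand of the gene, with each GGAA or its reverse complement TTCC in capitals) are shown because the genes move together and neighbour one another. The promoters of *Itga2b*, higher in WT-ERG, and *Cybb*, lower in WT-ERG, follow for comparison.
Stfa3 (chr16:36455393-36455492, minus strand): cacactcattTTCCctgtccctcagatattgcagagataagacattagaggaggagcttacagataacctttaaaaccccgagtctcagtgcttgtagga
Stfa2 (chr16:36408364-36408463, minus strand): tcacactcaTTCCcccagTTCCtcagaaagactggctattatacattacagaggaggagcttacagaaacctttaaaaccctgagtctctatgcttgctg
Stfa1 (chr16:36277048-36277147, plus strand): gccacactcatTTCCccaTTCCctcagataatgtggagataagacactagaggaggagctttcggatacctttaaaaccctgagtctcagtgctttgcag
Stfa2l1 (chr16:36156711-36156810, plus strand): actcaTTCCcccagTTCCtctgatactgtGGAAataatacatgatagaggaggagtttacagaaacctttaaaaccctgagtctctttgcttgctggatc
Itga2b (chr11:102469884-102469983, minus strand): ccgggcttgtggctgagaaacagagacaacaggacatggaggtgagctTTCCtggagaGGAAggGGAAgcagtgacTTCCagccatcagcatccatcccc
Cybb (chrX:9469325-9469424, minus strand): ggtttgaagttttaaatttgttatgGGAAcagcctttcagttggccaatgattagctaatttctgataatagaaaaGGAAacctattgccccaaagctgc
In global alignments the 4 stefin promoters were 75.2% to 83.5% identical to one another and 43.3% to 49.2% identical to those of *Itga2b* and *Cybb*. They held between 1 and 3 copies of the core on either strand, *Itga2b* held 4 and *Cybb* held 2. The core is short, and 67.0% of all promoters hold it in these 100 bases. The longer ETS sequence CCGGAAGT, on either strand of the 250 bases before the start, was in 4.08% of the 1004 promoters matched to genes higher in WT-ERG, 4.68% of the 1089 matched to lower genes and 6.50% of the 9305 matched to all tested genes. The variant CAGGAAGT, which shares its last letters, was in 2.49%, 3.12% and 2.86%. These shares describe letters in a window and not binding.

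Outside the stefin locus, the leading increases came from other gene families. *Fbln1*, which encodes the matrix protein fibulin 1, measured 48.8, 44.4, 41.1 and 42.9 CPM in WT-ERG and 7.87, 9.98, 9.94 and 8.89 CPM in BB cells (2.28, SE 0.08, adjusted p = 6.08e-19). *Itga2b*, the platelet integrin CD41 that also marks early hematopoietic progenitors, measured 25.1, 22.6, 21.6 and 23.6 CPM against 8, 6.53, 7.94 and 6.86 CPM (1.66, SE 0.09, adjusted p = 3.68e-14). Both pairs were far apart, and a lack of overlap between the constructs was a condition for entering the largest changes. *Hrh2*, a histamine receptor, was 15.6 to 20.1 CPM against 4.8 to 6.79 CPM (1.67), and *Prkch*, a protein kinase C, was 10.2 to 12 CPM against 2.57 to 4.41 CPM (1.69). *Rasa4* (1.83), a Ras GTPase-activating protein, *Lax1* (1.81), an adaptor of lymphocyte receptor signalling, *Psrc1* (1.76), a spindle-associated protein, *Cntnap1* (1.66), a contactin partner, and *Lilr4b* (1.61), a receptor of myeloid cells, completed the 14 largest increases.

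Among genes lower in WT-ERG, *Postn*, which encodes the matrix protein periostin, had the largest difference at this level of abundance. It measured 5.36, 5.12, 4.87 and 3.67 CPM in WT-ERG and 34.6, 30.4, 30.6 and 34.2 CPM in BB cells (-2.76, SE 0.11, adjusted p = 2.24e-17). *Ctnna1*, the alpha-catenin that links cadherins to actin and is a tumor suppressor in myeloid leukemia, measured 42.1, 36, 40.1 and 34.6 CPM against 149.9, 139, 138 and 146 CPM (-1.90, SE 0.05, adjusted p = 6.37e-21). *Glul*, glutamine synthetase, measured 26.2, 23.2, 26 and 25.7 CPM against 83.9, 83.9, 80.0 and 82.2 CPM (-1.71, SE 0.05, adjusted p = 8.36e-20). For all 3 the spread among libraries of a construct was small beside the gap.

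The sorting receptors *Sort1* and *Sorl1* were both lower, *Sort1* at 66.7 to 75.5 CPM against 231 to 239 CPM (-1.71) and *Sorl1* at 6.28 to 8.2 CPM against 24.5 to 26.8 CPM (-1.78). So were *Slc11a1* (-1.75), a phagosomal metal transporter, *Nrp2* (-1.69), a semaphorin and VEGF coreceptor, *Ces1d* (-1.70), a carboxylesterase, *Chn2* (-1.63), a Rac GTPase-activating protein, and *Miga1* (-2.42), a mitochondrial fusion factor. The noncoding genes *4933440M02Rik* (-2.67) and *AI427809* (-1.73) and the granule genes *Olfm4* and *Chil3* described next completed the 14 largest decreases. *Serpina3g* had the largest log2 fold change of the lists below (7.28, SE 0.20, adjusted p = 4.9e-21), at 24.7, 23.4, 25 and 28.6 CPM in WT-ERG and 0.0635, 0.22, 0.2 and 0.144 CPM in BB cells, where only 9 reads were counted in all 4 BB libraries. It encodes a serine protease inhibitor with close paralogs, among which reads may be shared.

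**Figure D2:**
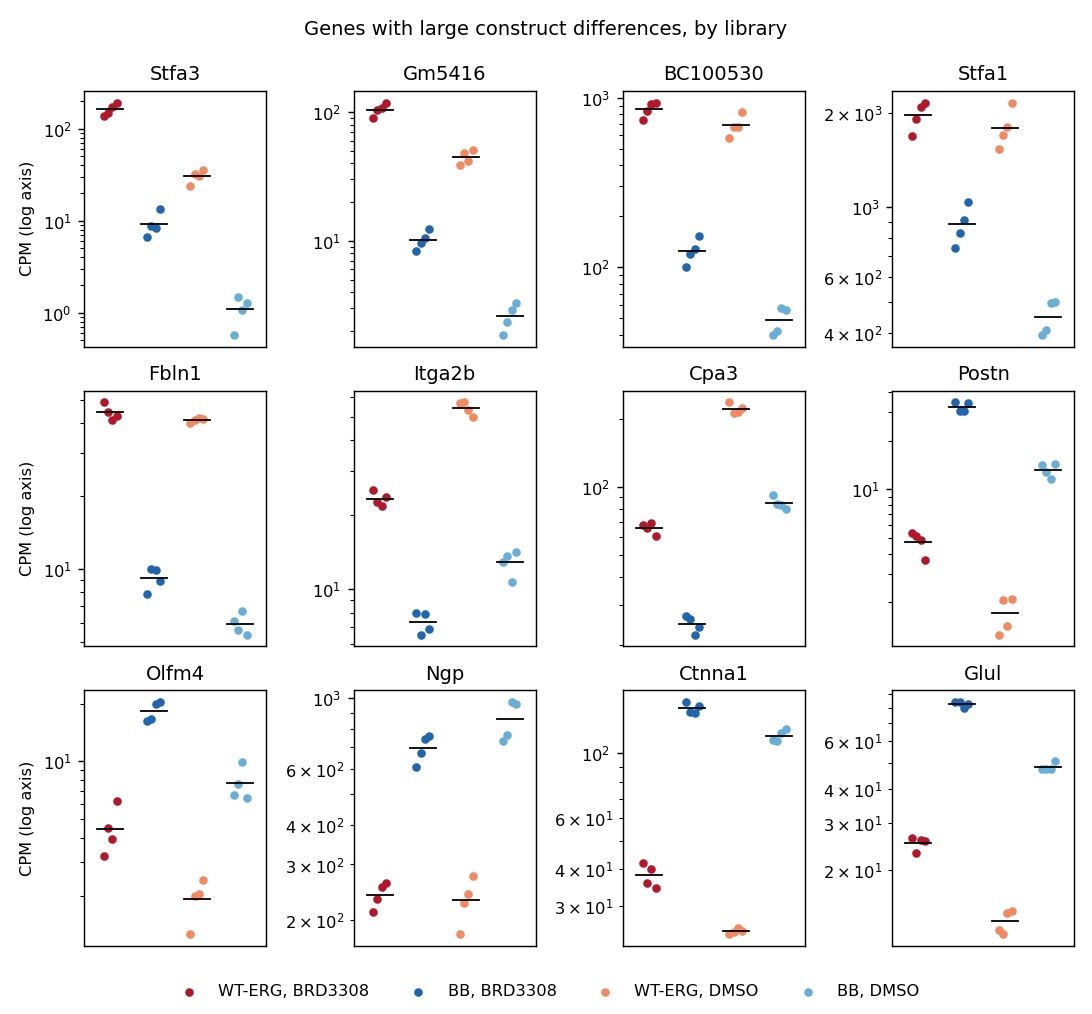
Level in CPM (log axis) of 12 genes in each library, with 1 point per library, a black bar at the mean and the groups WT-ERG with BRD3308, BB with BRD3308, WT-ERG with DMSO and BB with DMSO from left to right. In each gene the 4 WT-ERG libraries under BRD3308 stand clear of the 4 BB libraries. This was a condition of choice for all but *Stfa1*, *Cpa3* and *Ngp*. For *Stfa3*, *Postn* and *Glul* both constructs are higher under BRD3308 than in DMSO.

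Most secondary granule genes were lower. Of the 13 tested genes of secondary and tertiary granules, 8 were lower and 4 higher, 12 in all against 21.1% of all genes called in either direction, the background for every list here, with a median log2 fold change of -0.47 under BRD3308 and -0.57 in DMSO. *Ngp*, neutrophilic granule protein, measured 213, 234, 255 and 262 CPM in WT-ERG and 609, 671, 745 and 759 CPM in BB cells (-1.53, SE 0.12, adjusted p = 4.62e-11). *Chil3*, a chitinase-like lectin, was 12.6 to 16 CPM against 49.4 to 66.1 CPM (-1.93), and *Olfm4*, olfactomedin 4, was 3.23 to 6.19 CPM against 16.2 to 20.4 CPM (-2.05). The 4 higher members were the metalloprotease *Adam8* (0.77), the neutrophil antigen *Cd177* (0.70), the integrin *Itgb2l* (0.63) and *Lrg1* (0.34), a secreted leucine-rich glycoprotein. These counts were the same with any 1 of the 8 libraries left out. In these bulk samples, fewer cells of a type and less RNA per cell cannot be told apart, and the part of a changed cell mixture in this and the following lists was not tested.

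Primary granule genes changed in both directions. Of 10 tested, 3 were higher and 2 lower, with a median of -0.01 under BRD3308 and 0.06 in DMSO. *Mpo*, myeloperoxidase, measured 15916, 14637, 14886 and 14414 CPM in WT-ERG and 14164, 13159, 13099 and 12314 CPM in BB cells (0.18, SE 0.04, adjusted p = 0.00254), and *Ctsg*, cathepsin G, had a log2 fold change of 0.20. *Elane*, neutrophil elastase, went the other way at 2132, 2072, 2210 and 2168 CPM against 2571, 2552, 2631 and 2698 CPM (-0.28, SE 0.05, adjusted p = 6.72e-05). The fifth called member, *Gusb*, a lysosomal glucuronidase, was at -0.10, a call lost without the filter on low counts (adjusted p = 0.197).

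Mature neutrophil genes were mostly higher where called, 8 of 23 against 2 lower, with a median of 0.08 under BRD3308 and 0.29 in DMSO. Leaving out 1 library gave 7 to 9 higher. It gave 5 lower without BB replicate 1, 4 without WT-ERG replicate 4, and 1 without BB replicate 4 or WT-ERG replicate 1 or 2. The higher members included *Stfa1*, *Stfa2* and *Stfa2l1* of the stefin locus. *Csf3r*, the receptor for the granulocyte growth factor G-CSF, measured 229, 233, 229 and 223 CPM in WT-ERG and 157, 172, 173 and 174 CPM in BB cells (0.44, SE 0.04, adjusted p = 1.37e-09). *Cxcr2*, a receptor for neutrophil-attracting chemokines, was 94 to 106 CPM against 63.8 to 78 CPM (0.50). The members lower in WT-ERG were *Itgb2*, the shared chain of the leukocyte integrins, at 465, 458, 464 and 482 CPM against 664, 658, 644 and 658 CPM (-0.49, SE 0.04, adjusted p = 1.94e-10), and *Ly6g*, the granulocyte antigen, at 1.74 to 1.94 CPM against 2.27 to 3.32 CPM (-0.52, adjusted p = 0.0343), a call lost without BB replicate 2 or 4 or WT-ERG replicate 1, 2 or 3 (adjusted p up to 0.133). *Itgam* (CD11b) was 273 to 290.0 CPM against 298 to 306 CPM without overlap (-0.10, SE 0.04, adjusted p = 0.0938), and did not pass. It did pass in 5 of 25 alternative analyses (adjusted p down to 0.0106), 2 of which left out a single library, BRD3308-treated WT-ERG replicate 3 (adjusted p = 0.0466) or DMSO-treated WT-ERG replicate 4 (adjusted p = 0.0296).

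The phagocyte oxidase was lower. Of the 6 NADPH oxidase subunits tested, 5 were lower and none was higher by edgeR, with a median of -0.20 under BRD3308 and -0.18 in DMSO. *Cybb*, the catalytic subunit gp91phox, measured 55.1, 62.8, 61.3 and 66.4 CPM in WT-ERG and 117, 114, 114 and 131 CPM in BB cells (-0.95, SE 0.06, adjusted p = 2.36e-12). Its membrane partner *Cyba* (-0.25) and the GTPase *Rac2* (-0.22) had smaller differences. Leaving out 1 library gave 4 or 5 lower subunits.

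Monocyte and macrophage genes were likewise lower, 8 of 16 tested against 1 higher, with a median of -0.24 under BRD3308 and -0.36 in DMSO. *F13a1*, coagulation factor XIII A chain and a monocyte marker, measured 463, 451, 463 and 459 CPM in WT-ERG and 1006, 999, 967 and 991 CPM in BB cells (-1.11, SE 0.04, adjusted p = 3.21e-19). *Adgre1*, which encodes F4/80, measured 54.4, 53.5, 55.4 and 57.3 CPM against 80.0, 76.2, 75.6 and 82.6 CPM (-0.51, SE 0.05, adjusted p = 9.58e-10). *Ly6c2*, an antigen of inflammatory monocytes with a close paralog, measured 1069 to 1244 CPM against 1720 to 1878 CPM (-0.64). The member higher in WT-ERG was *Ccr2*, the receptor that draws monocytes from bone marrow, at 330.5, 340.2, 355 and 358 CPM against 214, 233, 221 and 245 CPM (0.60, SE 0.04, adjusted p = 9e-12). The lectin receptor *Clec12a* was 709.8 to 776 CPM against 789 to 837 CPM, without overlap (-0.12, SE 0.06, adjusted p = 0.144), and did not pass, although it did in 4 of 25 alternative analyses (adjusted p down to 0.0047). In DMSO it was lower (-0.31, SE 0.06, adjusted p = 0.000172), and the difference between treatments did not pass (adjusted p = 0.419). The 20 listed genes summed to 3637 to 3990 CPM in WT-ERG and 4966 to 5334 CPM in BB cells.

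The innate signalling lists showed decreases without increases among their called members by edgeR. Of 15 cytokine and chemokine genes tested, 8 were lower (median -0.32 under BRD3308 and -0.40 in DMSO), including *Il1rn*, the interleukin 1 receptor antagonist, at 10.4, 12.2, 12.3 and 13.1 CPM in WT-ERG and 21.6, 23.5, 25.7 and 28.1 CPM in BB cells (-1.04, SE 0.10, adjusted p = 7.64e-09), *Csf1*, the macrophage growth factor (-0.65), *Il18* (-0.60) and *Il1b* (-0.55). Without WT-ERG replicate 1 or 2 the count was 4, and without BB replicate 2, 3 or 4 it was 5. Of 22 pattern recognition receptors and adaptors, 5 were lower (median -0.03 under BRD3308 and -0.03 in DMSO), close to the background, among them the Toll-like receptors *Tlr2* (-0.55), *Tlr6* (-0.39) and *Tlr7* (-0.43) and the inflammasome sensor *Nlrp3* (-0.87).

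Receptors and signal-driven factors changed in both directions. Of 16 growth factor and cytokine receptors, 4 were higher and 4 lower (median 0.02 under BRD3308 and -0.03 in DMSO). *Il6ra*, the interleukin 6 receptor, measured 23.8, 22.4, 20.3 and 21.6 CPM in WT-ERG and 36.6, 39.7, 37.2 and 40.3 CPM in BB cells (-0.80, SE 0.06, adjusted p = 1.37e-10), while its signalling partner *Il6st* (gp130) was higher at 1.15 to 1.85 CPM against 0.0734 to 0.267 CPM (2.82). *Csf2ra*, of the GM-CSF receptor, was lower at 72.3 to 81.4 CPM against 105 to 135 CPM (-0.65). Of 10 AP-1 and immediate early factors, 3 were lower and 1 higher (median -0.16 under BRD3308 and -0.01 in DMSO), with *Jun* at 19.4 to 26.7 CPM against 33.1 to 62.2 CPM (-0.87). The higher one, *Fosl1* (0.47), was lost without BB replicate 1, 3 or 4 or WT-ERG replicate 2, 3 or 4 (adjusted p up to 0.174). Of 8 chemokine receptors, *Ccr2* and *Cxcr2* were higher and *Ccrl2* (-0.47) and *Cxcr4* (-0.15), which retains cells in bone marrow, were lower.

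Stem and progenitor genes were mostly higher. Of 14 tested, 10 were higher and 2 lower (median 0.24 under BRD3308 and 0.36 in DMSO), and 10 were higher whichever of the 8 libraries was left out. *Kit*, the stem cell factor receptor, measured 302, 306, 312 and 310.4 CPM in WT-ERG and 263, 268, 263 and 257 CPM in BB cells (0.23, SE 0.04, adjusted p = 1.62e-05). *Ly6a*, which encodes the stem cell antigen Sca-1, measured 4.59, 5.49, 6.14 and 5.66 CPM against 2.41, 2.42, 1.6 and 2.46 CPM (1.30, SE 0.18, adjusted p = 2.69e-06), and *Hmga2*, a chromatin protein of fetal stem cells, was 8.41 to 10.3 CPM against 3.9 to 5.4 CPM (0.90). *Flt3*, a receptor of lymphoid and dendritic precursors from the list of growth factor receptors, was 4.2 to 5.49 CPM against 2.31 to 2.73 CPM (1.03). The 2 lower stem cell genes were *Prom1* (CD133) at 15.6 to 18.7 CPM against 30.1 to 32.2 CPM (-0.84) and *Cd34*, whose libraries overlapped at 149.8 to 159 CPM against 159 to 176 CPM (-0.14, adjusted p = 0.0259), a call lost without BB replicate 1 or 4 or WT-ERG replicate 2 or 4 (adjusted p up to 0.0686).

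Of the 7 heptad factors, the stem cell transcription factors that bind together with ERG, 3 were higher: *Lmo2*, *Gata2* and *Erg* itself. Leaving out 1 library gave 2 or 3. *Erg* overlapped between the constructs, and its reads may include those of the human construct. *Lmo2*, a bridging protein, measured 166, 167, 164 and 158 CPM in WT-ERG and 119.8, 118, 119 and 119 CPM in BB cells (0.46, SE 0.04, adjusted p = 4.02e-11), and *Gata2* measured 21.9, 19.6, 22.5 and 21 CPM against 12.4, 12.5, 14.6 and 15.1 CPM (0.64, SE 0.09, adjusted p = 3.83e-06). Both were separated between constructs. Of 15 other ETS factors, 5 were higher and 2 lower (median 0.03 under BRD3308 and 0.02 in DMSO). *Etv4* (0.69) and *Etv5* (1.30), of the PEA3 group, were low, at 3.59 to 5.49 and 1.03 to 1.73 CPM in WT-ERG against 1.97 to 3.16 and 0.367 to 0.722 CPM in BB cells, and *Ets1* was lower at 0.904 to 1.48 against 3.03 to 4.06 CPM (-1.66). *Spi1*, which encodes the myeloid master factor PU.1, measured 498, 499, 511 and 515 CPM against 533, 565, 584 and 578 CPM (-0.16, SE 0.05, adjusted p = 0.011). Without WT-ERG replicate 3 or 4, 3 ETS factors rather than 5 were higher.

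Of 16 myeloid transcription factors, 2 were higher and 3 lower (median -0.07 under BRD3308 and 0.01 in DMSO). *Cebpa*, a driver of granulocyte commitment, measured 465, 454, 471 and 456 CPM in WT-ERG and 378, 376, 383 and 368 CPM in BB cells (0.29, SE 0.03, adjusted p = 3.73e-08), and *Zeb2* measured 131 to 137 CPM against 146 to 157 CPM (-0.20). *Gfi1*, a repressor needed for neutrophils, was at 0.18, a call lost without BB replicate 4 (adjusted p = 0.0736). *Myc*, a driver of growth, measured 222, 216, 219 and 202 CPM against 159, 182, 153 and 149 CPM (0.42, SE 0.07, adjusted p = 9.27e-05). Endogenous and transduced *Hoxb8* reads together were 799 to 854 CPM in WT-ERG and 852 to 882 CPM in BB cells, with an interval of -0.15 to 0.02. Of the 11 tested genes of the NCoR-HDAC3 complex and class I HDACs, only *Cbfa2t3* passed by edgeR, at 70.3 to 75.5 CPM against 52.2 to 62.2 CPM (0.34). It encodes a corepressor that binds NCoR and HDAC3. Without BB replicate 1 or 2 or WT-ERG replicate 4, 1 member of this list was also called lower.

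Replication genes were lower by small amounts. Of 14 tested, 11 were lower (median -0.15 under BRD3308 and -0.14 in DMSO), among them the helicase subunits *Mcm5* at 475, 477, 472 and 491 CPM in WT-ERG and 562, 557, 567 and 542 CPM in BB cells (-0.22, SE 0.03, adjusted p = 1.76e-06) and *Mcm3* (-0.18), the sliding clamp *Pcna* (-0.21) and the ribonucleotide reductase subunit *Rrm2* (-0.28). Of 14 mitosis genes, 3 were lower (median -0.06 under BRD3308 and -0.04 in DMSO), a share close to the 21.1% of all genes. Among 6 cyclin-dependent kinase inhibitors, *Cdkn2a* was higher (0.51) and *Cdkn2c* (-0.41), *Cdkn2d* (-0.19) and *Cdkn3* (-0.28) were lower. Of 14 BCL2 family genes, 4 were called, also near the background, with a median of 0.01 under BRD3308 and -0.02 in DMSO. The survival genes *Bcl2* (0.32) and *Bcl2l1* (0.22) and the death activator *Bbc3* (0.26) were higher and *Bmf* (-0.37), another death activator, was lower.

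Adhesion and matrix genes changed in both directions. Of 14 matrix genes, 6 were lower and 4 higher (median -0.45 under BRD3308 and 0.03 in DMSO), and 2 were higher without BB replicate 3. *Thbs1*, thrombospondin 1, was the most abundant, at 6849, 6918, 7241 and 7669 CPM in WT-ERG and 10948, 11573, 11582 and 12011 CPM in BB cells (-0.69, SE 0.06, adjusted p = 2.92e-10), and *Fn1*, fibronectin, measured 72.7 to 83.2 CPM against 169 to 206 CPM (-1.30). Of 16 integrin subunits, 4 were higher and 3 lower (median 0.08 under BRD3308 and 0.05 in DMSO), with *Itga6* at 255 to 263 CPM against 199.5 to 212 CPM (0.33). *Itgb3*, the partner of *Itga2b*, was 78.5 to 80.3 CPM against 67.5 to 71.7 CPM (0.18, adjusted p = 0.0238), and its call was lost with 7 of the 8 libraries left out in turn (adjusted p up to 0.0984), all but BB replicate 3. Of 18 actin regulators, 5 were lower and 3 higher, with *Vim*, vimentin (-0.48), and *Gsn*, gelsolin (-0.42), lower and the tropomyosin *Tpm1* higher (0.33).

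Markers of other lineages moved with the construct in both directions. Of 7 tested mast cell and basophil genes, 4 were higher and 1 lower, with 2 higher without BB replicate 2 or WT-ERG replicate 1. *Cpa3*, a mast cell carboxypeptidase, measured 67.4, 65.5, 68.8 and 60.8 CPM in WT-ERG and 26.8, 26.1, 22.2 and 24.1 CPM in BB cells (1.40, SE 0.07, adjusted p = 3.04e-15), and *Mcpt8*, a basophil protease, was 63.4 to 69.6 CPM against 26.4 to 30.2 CPM (1.25). *Hdc*, which makes histamine, was lower at 176 to 191 CPM against 240.1 to 275 CPM (-0.51). The list summed to 328 to 348 CPM in WT-ERG and 316 to 354 CPM in BB cells, and its defining members *Fcer1a*, *Tpsb2*, *Tpsab1* and *Cma1* had no read in the 8 libraries.

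Of 7 tested B cell genes, 5 were lower and 1 higher (median -0.43 under BRD3308 and -0.32 in DMSO). *Ighm*, the IgM heavy chain, was 4.43 to 5.49 CPM in WT-ERG and 14.3 to 15.2 CPM in BB cells (-1.54), and *Igll1*, a surrogate light chain, was 68.5 to 84 CPM against 117 to 136 CPM (-0.71). The adaptor *Blnk* was higher (0.52). The 12 listed genes summed to 122 to 138 CPM in WT-ERG and 186 to 207 CPM in BB cells, and *Ms4a1* and *Rag1* had no read. Only 4 of 25 T and NK cell genes were tested, of which *Thy1* (0.90) and *Nkg7* (0.48), of cytotoxic granules, were higher. The T and NK cell list summed to 561 to 601 CPM in WT-ERG and 368 to 388 CPM in BB cells, with *Cd4*, *Cd8a*, *Cd2*, *Cd7*, *Gzma*, *Gzmb*, *Ncr1* and *Tbx21* at no read.

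**Figure D3:**
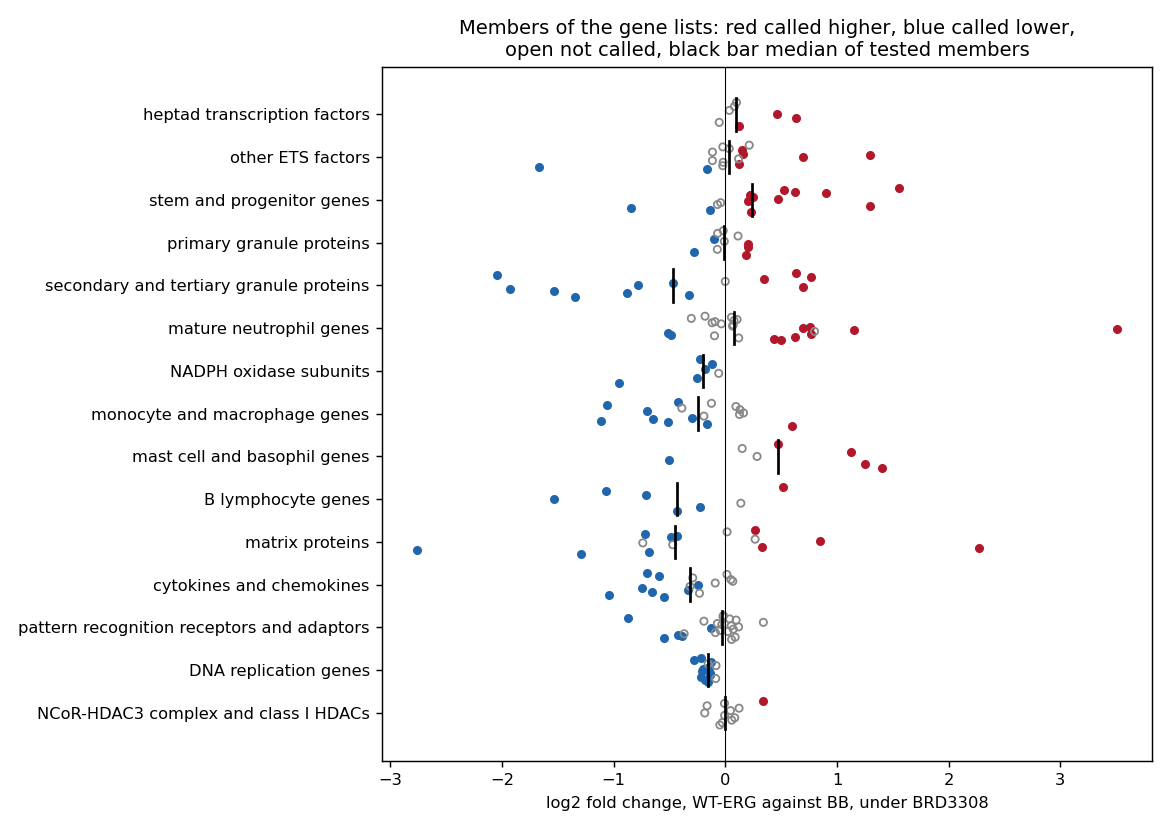
Log2 fold change of WT-ERG against BB under BRD3308 (x axis) for the tested members of 15 gene lists (y axis), filled red where called higher, filled blue where called lower and open where not called, with the median of each list as a black bar. The secondary granule, oxidase, monocyte, cytokine and replication lists have their medians below 0, at -0.47, -0.20, -0.24, -0.32 and -0.15, and the stem cell list above it, at 0.24.

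Whether a difference between constructs depended on treatment was tested directly, by the difference of the log2 fold changes in the edgeR fit. It passed for 224 of 12963 genes (1.73%), with 107 more positive (0.825%) and 117 more negative (0.903%) under BRD3308 than in DMSO. In 202 of the 224 the gene had been called in DMSO and the test ran against that call. Of these, 110 were higher in DMSO, with a median log2 fold change of 0.79 there and 0.27 under BRD3308, and 70 were still called higher. The other 92 were lower in DMSO, with medians of -0.74 and -0.29, and 62 were still called lower. These genes were selected by a DMSO call and by a difference running against it, so the smaller medians under BRD3308 follow from that selection. Only 4 genes had a larger increase under BRD3308 among those called higher in DMSO, and none had a larger decrease among those called lower there. The DMSO libraries entered both the call and the difference, which favours smaller differences in these counts. The counts were 173 and 177 when the fourth DMSO replicates of WT-ERG and P199L-ERG were left out, and 70 more positive without BRD3308-treated WT-ERG replicate 4. The largest counts among the alternative analyses were 213 and 208, from the fit with the replicate number as a block.

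The 10 genes with the smallest p values in the positive direction were all lower in WT-ERG, and less so under BRD3308. *Cybb* was 12.2 to 14.4 CPM in WT-ERG and 44.6 to 54.6 CPM in BB cells in DMSO (-1.90), against -0.95 under BRD3308, a difference of 0.94, SE 0.10, adjusted p = 1.36e-06. *F13a1* went from -1.53 to -1.11 (0.42, SE 0.05, adjusted p = 8.22e-06), *Ly6c2* from -1.38 to -0.64 (0.74, SE 0.09, adjusted p = 8.22e-06) and *Adgre1* from -1.11 to -0.51 (0.60, SE 0.07, adjusted p = 4.94e-06). The remaining 6 were *Osbpl3*, an oxysterol-binding protein, *Sgms2*, sphingomyelin synthase 2, *Igll1*, *Myo18b*, a myosin, the phosphatase *Acpp* and the pseudogene *I830127L07Rik*, which lies beside *Ly6c2*.

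Of the 10 in the negative direction, 9 were higher in WT-ERG under both treatments, and *Pld4*, an endolysosomal exonuclease, went from 0.51 in DMSO to -0.12 under BRD3308, where it did not pass (adjusted p = 0.0957). It did when WT-ERG replicate 1 was left out (adjusted p = 0.0345). *Ifitm1*, an interferon-induced membrane protein, was 270.2, 285, 263 and 324 CPM in WT-ERG and 48.3, 49.1, 52.9 and 54.1 CPM in BB cells in DMSO (2.48), and 309.9, 328, 336 and 338 CPM against 163, 175, 170.0 and 194 CPM under BRD3308 (0.90), a difference of -1.58, SE 0.09, adjusted p = 9.4e-13. Every BB library under BRD3308 lay above every BB library in DMSO, while the WT-ERG libraries of the treatments overlapped. Its neighbour *Ifitm3* went from 1.22 to 0.43 (-0.79, SE 0.07, adjusted p = 1.97e-08). *S100a6*, a calcium-binding protein (-1.48, SE 0.19, adjusted p = 9.66e-06), *Adam8* (-1.39, SE 0.14, adjusted p = 3.58e-07), *Tespa1*, a lymphocyte signalling protein (-1.15, SE 0.13, adjusted p = 1.36e-06), *Serpinb10* (-0.70, SE 0.08, adjusted p = 4.77e-06) and the membrane protease *Mmp14* (-0.63, SE 0.08, adjusted p = 1.59e-05) also had smaller increases under BRD3308. The BRD3308 call of *Mmp14* (0.15) was lost without BB replicate 1, 2 or 4 or WT-ERG replicate 2 or 4 (adjusted p up to 0.0944).

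A smaller ratio did not always come with a smaller gap in level. *Thy1*, a surface antigen of T cells and some progenitors, was 41.8 CPM in WT-ERG and 8.9 CPM in BB cells in DMSO (2.23), and 241 CPM against 129 CPM under BRD3308 (0.90), as means of 4. *Ccr2* was 83.1 CPM against 34.6 CPM in DMSO (1.26) and 346 CPM against 228 CPM under BRD3308 (0.60). For both genes the log2 fold change was smaller and the distance in CPM larger under BRD3308, with the means of both constructs higher than in DMSO. Over the 110 genes with a smaller increase, the CPM gap was larger under BRD3308 in 22, and the BB mean was higher under BRD3308 than in DMSO in 95 and the WT-ERG mean in 76. Over the 92 with a smaller decrease, the gap was larger in 18, and the WT-ERG mean was higher under BRD3308 in 78 and the BB mean in 56.

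**Figure D4:**
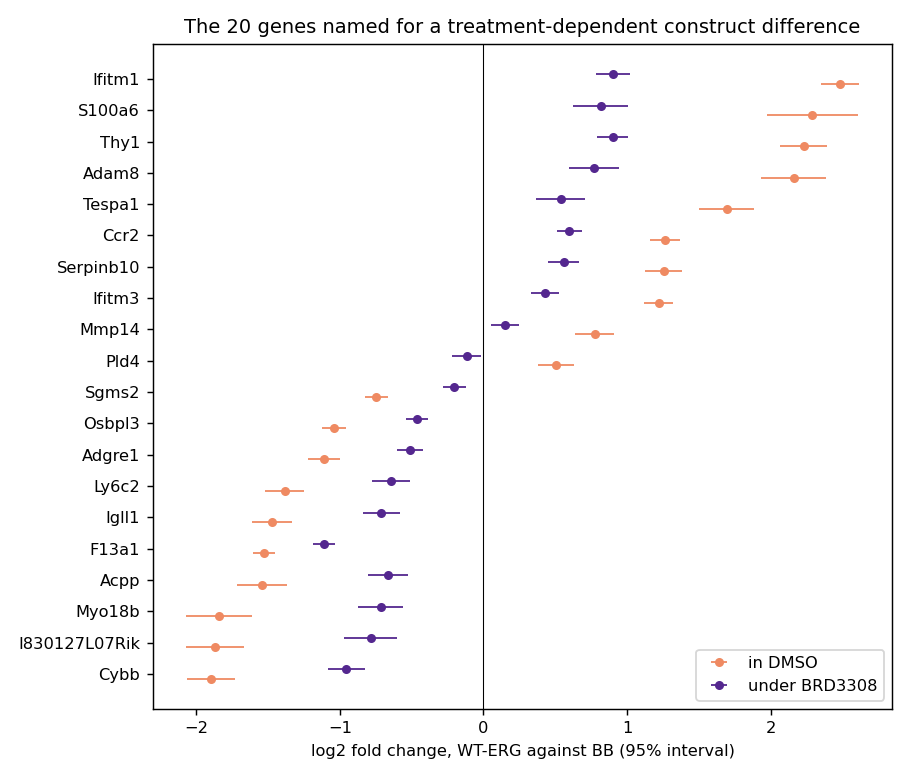
Log2 fold change of WT-ERG against BB with its 95% interval (x axis) in DMSO (orange) and under BRD3308 (purple) for the 20 genes with the smallest p values for a difference between treatments, 10 in each direction (y axis). Every purple point is nearer to 0 than its orange point, and *Pld4* crosses 0, from 0.51 to -0.12.

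**Figure D5:**
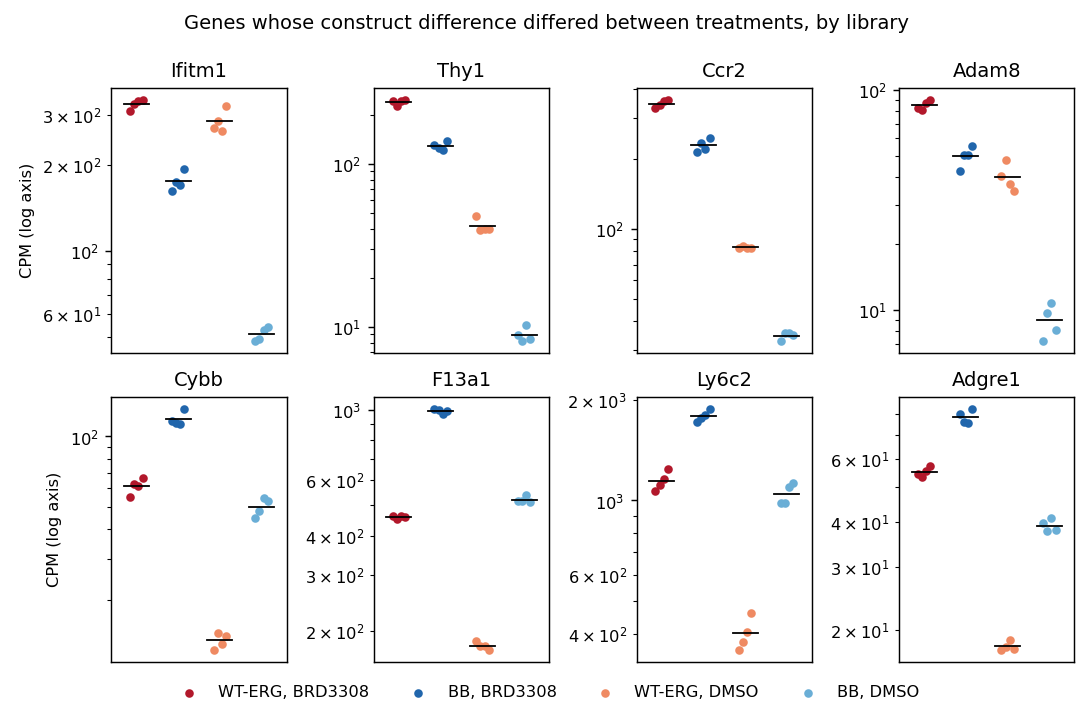
Level in CPM (log axis) of 8 of these genes in each library, with 1 point per library and a black bar at the mean, in the same group order as the plot of leading genes. For *Ccr2*, *Thy1*, *Cybb*, *F13a1*, *Ly6c2* and *Adgre1* both constructs are higher under BRD3308 than in DMSO, and for *Ifitm1* the BB libraries lie at 48.3 to 54.1 CPM in DMSO and 163 to 194 CPM under BRD3308.

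Genes that the study names in its text were also tested for a difference between treatments. *Gata2* had a log2 fold change of 1.57 in DMSO and 0.64 under BRD3308 (difference -0.93, SE 0.14, adjusted p = 0.000102), and *Itgam* -0.34 and -0.10 (difference 0.24, SE 0.06, adjusted p = 0.0237). *Itga2b* had 2.08 and 1.66, with a difference that did not pass (adjusted p = 0.0851), and *Flt3* had 1.21 and 1.03 (adjusted p = 0.903). In the stefin locus the difference was negative for all 10 genes and passed for 3: *BC100530* (-1.04, SE 0.21, adjusted p = 0.00478), *Stfa1* (-0.84, SE 0.17, adjusted p = 0.00564) and *Gm15845* (-1.37, SE 0.33, adjusted p = 0.0243). *Gm15845* overlaps *BC100530*, so its result is not separate from that of *BC100530*. All 10 had been called higher in DMSO, and the median over all genes called higher there was 0.30 in DMSO and 0.18 under BRD3308.

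Differences called under BRD3308 and not in DMSO numbered 339 higher and 323 lower genes, but the test of the difference passed in the same direction for 11 and 7 of them. Of the 339, 300 pointed the same way in DMSO, and of the 323, 292 did. *Ly6a* is an example, called under BRD3308 (1.30) and not in DMSO (0.40), where it was at 0.434 to 1.03 CPM in WT-ERG and 0.501 to 0.844 CPM in BB cells, with a difference that did not pass (adjusted p = 0.419).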

How the data were processed

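RNA-seq libraries of ER-Hoxb8 cells were grouped by the construct and treatment in their labels. The authors deposited read counts per gene. The submitters' processing notes name cutadapt, STAR, HTSeq and DESeq2 and the GRCm38 genome, without versions or roles, and those sources state neither the annotation nor the strand setting. Symbols, positions and exon lengths came from GENCODE M21.

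Low genes were removed with filterByExpr, libraries were scaled by TMM, and edgeR 4.0.16 (R 4.3.3) fitted 1 quasi-likelihood model, with a mean for each of the 6 groups, to the 24 libraries. CPM used the scaled library sizes. P values were two-sided and adjusted over all tested genes (Benjamini-Hochberg, 0.05 as threshold). SE is the absolute log2 fold change over the square root of F. Higher, lower and called refer to this test. The method was tested on simulated data. Counting error is part of the spread between libraries.

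As alternatives, the scaling was changed to RLE factors or to library size, the filter was dropped or raised to more than 30 reads in every library, and the fit was replaced by limma-voom (limma 3.58.1), by DESeq2 1.42.0, by one on the compared groups only, or by one blocked on the replicate number. The threshold was moved to 0.01 or joined by a fold limit of 1 (log2), and every library was left out in turn. One more, leaving out both libraries apart by gene length, was chosen after seeing the data.

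Genes named had the 14 largest changes in each direction (mean log2 CPM of at least 2, no overlap), up to 4 smallest p values per list and members against their list, the 10 smallest p values in each direction for a difference between treatments, calls in opposite directions, or a place in the study. A list marker without reads is named as such, and some genes that the rule names are not reported here. The members and the 33 lists were chosen with earlier results of these data known. Of the tested genes, 9305 matched the RefSeq promoter table (GRCm38.p6).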

Additional observations from a re-analysis of the deposited data

Results flagged for a closer look

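A test of the difference between treatments passed for 107 genes with a more positive and 117 genes with a more negative construct difference under BRD3308 than in DMSO. Among the genes described above, the difference of log2 fold changes was 0.58 for *Osbpl3*, 0.543 for *Sgms2*, 0.943 for *Cybb*, 0.6 for *Adgre1*, 1.09 for *I830127L07Rik*, 0.741 for *Ly6c2*, 0.418 for *F13a1*, 1.12 for *Myo18b*, 0.762 for *Igll1* and 0.88 for *Acpp*. It was -1.58 for *Ifitm1*, -1.33 for *Thy1*, -0.79 for *Ifitm3*, -0.663 for *Ccr2*, -1.39 for *Adam8*, -1.15 for *Tespa1*, -0.697 for *Serpinb10*, -0.625 for *Pld4*, -1.48 for *S100a6*, -0.627 for *Mmp14* and -0.463 for *Nudt18*.

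A library stood apart from the other 3 of its group in 14 of the 334 groups of named genes examined under BRD3308, where its gap to the nearest library, as a share of the range of the group, was above Dixon's critical value. Chance gives about 1 such group in 20. In BB cells the share was 0.934 for *Rasa4*, 0.928 for *Psrc1*, 0.851 for *Sort1*, 0.948 for *Ly6a*, 0.84 for *Csf3r*, 0.86 for *Mcpt8*, 0.871 for *Gp9*, 0.862 for *Serpinb8* and 0.872 for *Bcl2*. In WT-ERG cells it was 0.831 for *Ets1*, 0.88 for *Etv4*, 0.865 for *Ly6g*, 0.906 for *Thy1* and 0.932 for *Mxd3*.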

How the results depend on the processing

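Each count was computed again under 27 other settings, 16 of which left out 1 library. Of the 166 named genes besides *Erg*, 159 were called. Each was tested again in the 24 or 25 settings that kept the threshold, and 0 changed direction. The call was lost in 69 of these 3954 values, in 16 genes. The limits of an adjusted p under 0.01 and a log2 fold change beyond 1 were left out of these values. Called genes short of a limit, such as *Spi1* (-0.16, adjusted p = 0.011 by edgeR), miss it by construction. Of the 7 that were not called, 5 passed under at least 1 setting, in 16 values, among them *Clec12a*, *Itgam*, *Pld4* and *Hoxb8* (the last only without both libraries apart by gene length, adjusted p = 0.0491). *Ncor1*, which was not called, changed sign with library size alone (0.0094) and without WT-ERG replicate 2 (3.85e-06), and leaving out a library gave -0.038 to 3.85e-06. *Erg* missed the threshold without a filter on low counts (0.13, adjusted p = 0.119) and at an adjusted p under 0.01 (0.12), and leaving out a library gave 0.085 to 0.14.

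At an adjusted p under 0.01, 890 genes were higher and 889 lower under BRD3308, 702 were lower in both treatments, and 47 and 58 differed between treatments. Beyond a log2 fold change of 1 there were 206 higher and 153 lower under BRD3308, 265 and 229 in DMSO, 135 and 124 in both, and 10 and 16 that differed between treatments. The count of genes with opposite calls, 1, became 0 under DESeq2, without a filter on low counts, at an adjusted p under 0.01 and beyond a log2 fold change of 1. It was 2 with over 30 reads in every library, 3 with library size alone or with only the groups compared, and 5 without both libraries apart by gene length, a setting chosen after seeing the data, under which 173 and 177 genes differed between treatments. Leaving out 1 library gave 1061 to 1417 higher and 1104 to 1463 lower genes under BRD3308, 1748 to 1963 and 1548 to 1954 in DMSO, 830 to 1018 and 890 to 1094 in both, 0 to 3 opposite, and 70 to 101 more positive and 88 to 120 more negative differences between treatments. The causes of these changes were not tested beyond the smaller number of libraries or stricter threshold that some settings have by construction.

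With the replicate number as a block, 213 genes were more positive and 208 more negative under BRD3308 than in DMSO, and 7 had opposite calls. *Clec12a* (adjusted p = 0.0179), *Itgam* (0.0453) and *Pld4* (0.0344) then passed under BRD3308. Deviations from the group mean in BRD3308-treated libraries of the same number correlated at 0.0302 to 0.28. WT-ERG replicates 1 and 4 correlated best with their own number in BB cells (0.28 and 0.176). WT-ERG replicates 2 and 3 correlated best with another number, whereas BB replicate 2 correlated best with its own. Between the constructs in DMSO, and between treatments within WT-ERG and within BB, replicate 1 also correlated best with its own number (0.21, 0.194 and 0.235). Same-number values there were 0.0788 to 0.122 for replicate 4 and -0.00479 to 0.0328 for replicates 2 and 3. The labels do not say that a number marks a shared batch. The main fit therefore did not treat the libraries as pairs, and any spread shared by number stayed in it.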

Other observations

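Of 16 tested interferon-stimulated genes, 4 were called lower and 2 higher with WT-ERG under BRD3308 (median log2 fold change -0.03 under BRD3308 and -0.12 in DMSO). *Gbp2*, a GTPase against intracellular pathogens, was 0.431 to 0.688 CPM in WT-ERG and 1.2 to 1.39 CPM in BB cells (-1.19), *Oasl2*, of the oligoadenylate synthetase family, 1.2 to 1.49 CPM against 1.98 to 3.18 CPM (-0.90), and *Ifit2* 18.4 to 21.8 CPM against 21.6 to 26.4 CPM (-0.31). The higher members were *Ifitm3* (0.43) and *Bst2* (0.19), which tethers virions. The call of *Bst2* was lost without BB replicate 1 or 3 or WT-ERG replicate 1, 3 or 4 (adjusted p up to 0.163), and without BB replicate 4 the list had 4 higher members. *Ifit2* had a smaller decrease under BRD3308 than in DMSO (-0.83 in DMSO, adjusted p of the difference 0.0135).

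Of 8 tested serpins, 3 were higher and 2 lower (median -0.05 under BRD3308 and 0.01 in DMSO), and 1 was lower without BB replicate 3 or 4 or WT-ERG replicate 2. *Serpinb8* was 1.17 to 1.34 CPM in WT-ERG and 2.79 to 3.83 CPM in BB cells (-1.30), and *Serpinb10* 85.7 to 97.9 CPM against 59.7 to 67.6 CPM (0.56). Of 7 tested Hox genes and cofactors, only *Hoxb4* was called by edgeR (0.36), at 12.5 to 16.1 CPM against 11.1 to 11.2 CPM, and without WT-ERG replicate 3 a lower member was also called. Of 8 MYC network genes, *Myc* was higher and *Mxd3* lower (-0.31), with 2 lower without BB replicate 4.

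Few genes of other lineages had enough reads to be tested. Of 6 megakaryocyte genes, *Itga2b* and *Itgb3* were higher and *Gp9*, a platelet glycoprotein, lower at 8.01 to 9.18 CPM against 10.5 to 15.7 CPM (-0.49), with 2 lower without BB replicate 2 or 3. *Treml1* and *Rab27b* of that list had no read. Of 5 erythroid genes, *Car2*, a carbonic anhydrase, was lower (-0.30), with 2 lower without WT-ERG replicate 1. Of 3 dendritic cell genes, *Flt3* was higher, with 2 higher without BB replicate 4 or WT-ERG replicate 4. Of 4 MHC class II and costimulation genes, 2 were higher and 1 lower. The higher count was 1 without BB replicate 3 or WT-ERG replicate 4 and the lower count 0 without BB replicate 4 or WT-ERG replicate 2.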
